A study of Mus musculus with 10 samples.

Results

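Tspan8, Olfm4, Spink4, Agr2, Clu, Wfdc18, Slc34a2, Cym, Cdh16 and Lurap1l are 10 genes that were picked because their transcripts were higher in Sox17+/- than in wild type gallbladder of 2 mouse strains. They were followed on all of their probe sets that name a single gene, 20 probe sets for 10 of the 18193 genes measured, and the question was whether wild type cystic duct also carries them at a higher level. RNA was taken from mouse embryos 15 days after mating (15 dpc) and read on arrays, in 5 groups of 2 biological replicates. Sox17+/- gallbladder came from the outbred stock ICR and from the inbred strain C57BL/6 (B6), cystic duct from wild type ICR embryos only, and the wild type gallbladder samples from both backgrounds. Sox17+/- embryos carry 1 altered copy of the gene, and the labels do not describe the allele or say whether embryos were pooled. Nothing in the labels ties a replicate to an animal or litter, so p-values refer only to the spread between these samples.

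The cystic duct drains the gallbladder into the bile duct, and both organs are lined by a simple epithelium that modifies bile by secretion and uptake. Sox17, a transcription factor gene active in endoderm, is needed for the gallbladder to form. The 10 genes encode secreted proteins (Olfm4, Spink4, Clu, Wfdc18, Cym), a folding enzyme of the secretory pathway (Agr2), proteins of the cell membrane (Slc34a2, Cdh16, Tspan8) and Lurap1l, a leucine-rich adaptor protein. In whole tissue RNA, fewer cells of a type and less RNA per cell cannot be told apart.

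Values are log2 signals after quantile normalization, so a difference of 1 is a doubling of signal, and levels of different probe sets cannot be compared with each other. Across 14696 genes tested, r between replicates was 0.898 for the cystic duct pair and 0.966 to 0.996 in the gallbladder groups. The median gap between replicates was 0.54 log2 units in cystic duct and 0.10 to 0.19 in gallbladder. The fit shares 1 variance per gene over all groups. The SE, interval and p-value of a cystic duct difference can therefore understate the spread of that pair. Cystic duct replicate 2 stood apart in the values as deposited, with an interquartile range of 2.75 log2 units against 3.46 to 3.85 in the other 9 samples, and Slc34a2 and Cdh16 were highest in it. Without it Slc34a2 differed from ICR wild type gallbladder by 1.87, Cdh16 by 1.16, Wfdc18 by 1.23 and Lurap1l by 1.15 in cystic duct. With 1 cystic duct sample left, the spread came from the gallbladder groups alone, so only the sizes are given. Samples also differed in Gapdh log2 signal near the end of its transcript minus that near its start. Cystic duct replicate 1 had 0.92 and replicate 2 had 0.31. The highest value, 0.93, came from ICR wild type gallbladder replicate 2, while replicate 1 had 0.6. The ICR Sox17+/- samples had 0.43 and 0.6, and the B6 samples ran from 0.0 to 0.3. What this measure contributes to the gene differences was not tested. On the probe set that reads it, Sox17 stood at 7.65 and 7.90 in ICR Sox17+/- gallbladder and at 8.28 and 7.63 in cystic duct, against 9.52 and 9.24 in ICR wild type gallbladder. In B6 it was 8.03 and 7.91 in Sox17+/- gallbladder and 9.29 and 9.04 in wild type gallbladder. Sox17 was thus lower in wild type cystic duct than in wild type gallbladder of ICR as well (-1.43 log2, SE 0.24, limma adjusted p = 0.00867).

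All 10 genes had both Sox17+/- samples above both wild type gallbladder samples in each strain, as the choice of the genes requires, so these values are a description and carry no test. Among all genes tested, 280 (1.91%) had the 4 Sox17+/- samples above the 4 wild type gallbladder samples. The gap was widest for Cym, which encodes chymosin, the milk-clotting protease of the newborn stomach. Its log2 signal was 10.01 and 10.32 in ICR Sox17+/- gallbladder, against 6.08 and 7.61 in ICR wild type gallbladder. In B6 it was 8.58 and 9.28 in Sox17+/- gallbladder and 6.68 and 6.45 in wild type gallbladder. The 2 ICR wild type samples lay further apart for Cym than for any other of the 10 genes, and the difference between genotypes was 3.32 (SE 0.46) in ICR and 2.37 (SE 0.46) in B6.

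**Figure D1:**
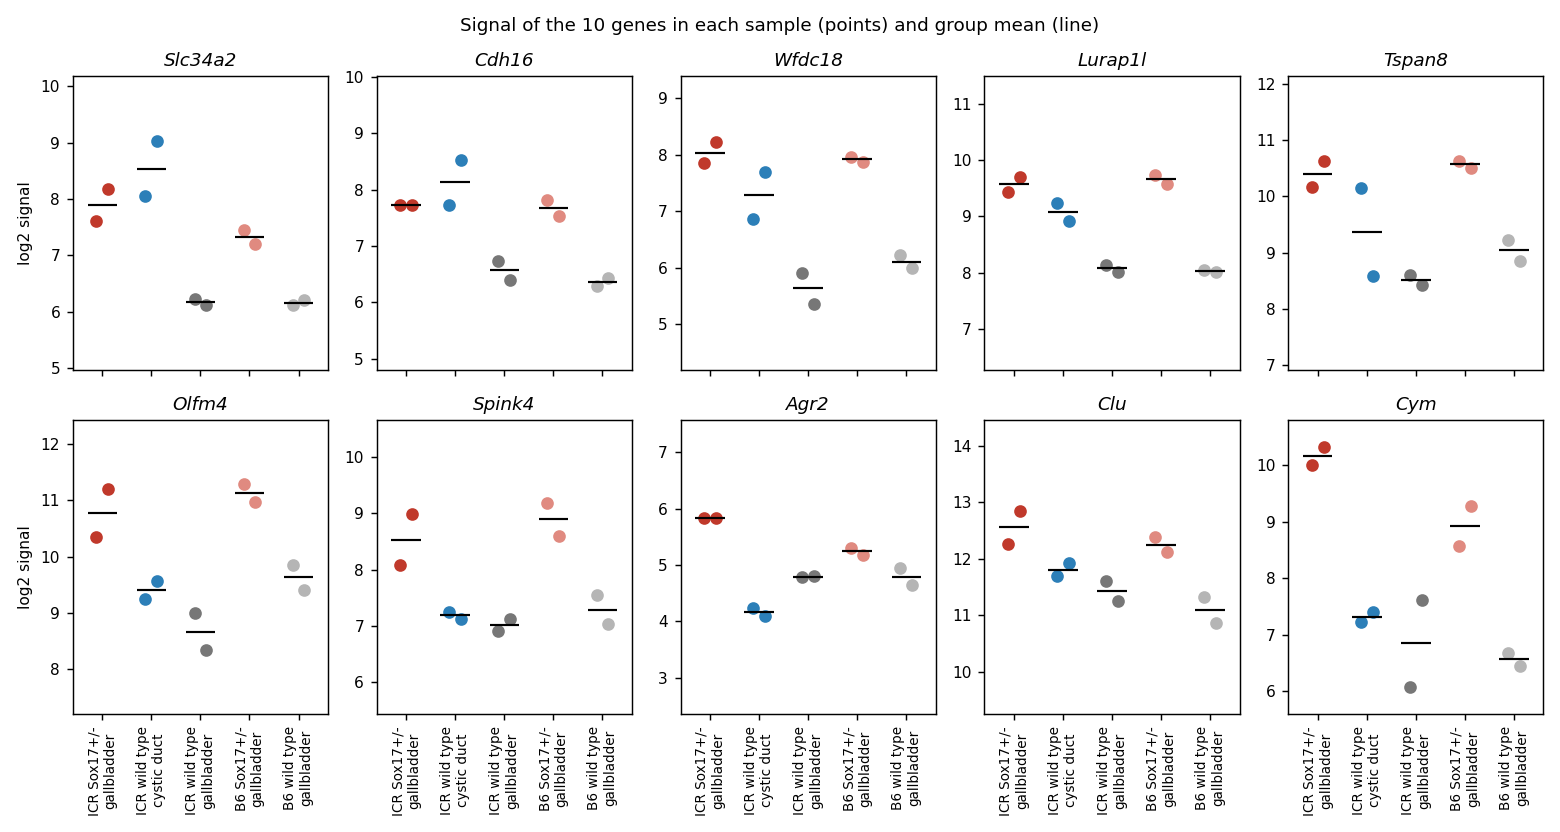
Log2 signal (vertical axis) of the 10 genes in each of the 10 samples (points), with the mean of each group of 2 (line), and groups along the horizontal axis. Every panel spans the same range of log2 units. Both cystic duct points lie above both ICR wild type gallbladder points in 7 panels (Slc34a2, Cdh16, Wfdc18, Lurap1l, Olfm4, Spink4 and Clu), and below them in that of Agr2. In the panel of Spink4 the nearest of these points are 7.13 in cystic duct and 7.12 in ICR wild type gallbladder.

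In cystic duct the 10 genes divided. Slc34a2, Cdh16, Wfdc18 and Lurap1l were higher in cystic duct than in ICR wild type gallbladder, by 1.99-fold to 5.16-fold, and the other 6 did not pass. An unadjusted p under 0.05 was reached by 5 of the 10, these 4 and Agr2, against 31.7% of all genes tested. Genes called higher in this comparison made up 5.73% of all genes tested and genes called lower 8.61%. The median difference was 0.79 over the 10 genes and -0.03 over all genes tested. The ICR wild type gallbladder samples that serve here were also among those on which the genes were chosen as low, so the values against B6 wild type gallbladder, chosen on in the same way, are given beside them. With B6 as the reference the same 4 genes passed (5.69% of all genes tested passed as higher), by 2.04-fold to 5.18-fold, and they passed against all 4 wild type gallbladder samples as well (7.64%). As duct genes, the name under which the 10 were gathered, 4 passed in this fit, and the other 6 were not shown to differ or to be alike.

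Slc34a2 encodes the sodium-dependent phosphate transporter of the apical membrane of lung and intestinal epithelium. Its log2 signal was 8.05 and 9.03 in cystic duct, against 6.22 and 6.12 in ICR wild type gallbladder, and 6.12 and 6.21 in B6 wild type gallbladder. In Sox17+/- gallbladder it was 7.61 and 8.18 in ICR and 7.45 and 7.20 in B6. All 4 wild type gallbladder samples were thus alike and below every other sample, while ICR Sox17+/- gallbladder and cystic duct overlapped. Cystic duct was 5.16-fold higher than ICR wild type gallbladder (log2 difference 2.37, SE 0.34, 95% interval 1.59 to 3.14, limma adjusted p = 0.00522).

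Cdh16 encodes a cadherin, a cell adhesion protein, known from kidney tubules. Its log2 signal was 7.73 and 8.52 in cystic duct, against 6.74 and 6.39 in ICR wild type gallbladder. The ICR Sox17+/- samples both read 7.72 and the B6 Sox17+/- samples 7.82 and 7.53, with B6 wild type gallbladder at 6.29 and 6.43. The lower cystic duct sample was level with the ICR Sox17+/- samples and the other stood above them. The cystic duct difference was 1.56 (SE 0.28, 95% interval 0.91 to 2.20, limma adjusted p = 0.0115), or 2.94-fold.

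Wfdc18 encodes a small secreted protein with a whey acidic protein core, and its only probe set is of a type (names in _s_at) that can read related transcripts. It read 6.86 and 7.70 in cystic duct, against 5.90 and 5.36 in ICR wild type gallbladder, a difference of 1.65 (SE 0.32, 95% interval 0.91 to 2.39, limma adjusted p = 0.0153). ICR Sox17+/- gallbladder stood at 7.85 and 8.22, above both cystic duct samples. The B6 samples were at 7.97 and 7.87 in Sox17+/- and 6.22 and 5.99 in wild type gallbladder, so cystic duct lay between the genotypes.

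Lurap1l showed the same order with less spread. It read 9.23 and 8.91 in cystic duct, against 8.14 and 8.02 in ICR wild type gallbladder, and 9.44 and 9.70 in ICR Sox17+/- gallbladder. B6 Sox17+/- gallbladder was at 9.74 and 9.58 and B6 wild type gallbladder at 8.05 and 8.02. The cystic duct difference was 0.99 (SE 0.17, 95% interval 0.61 to 1.38, limma adjusted p = 0.00897), or 1.99-fold. It was 0.65 in the values as deposited and 0.75 with samples centred on their medians, and in neither did it pass (limma adjusted p = 0.204 and 0.134, and 0.00154 to 0.238 over all 22 alternatives tried), while the median of all genes was -0.27 and -0.16.

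These 4 calls rest on a variance shared by all 10 samples. With only the 4 samples compared, or with each array weighted by its quality, 0 of the 10 genes and 0 genes in all passed in limma, while 4 of the 10 genes had an unadjusted p under 0.05 in each, as did 2083 and 1871 of all genes. Without ICR wild type gallbladder replicate 2, Wfdc18 (1.38, limma adjusted p = 0.0787, and 0.000822 to 0.253 over all alternatives) and Cdh16 (1.38, limma adjusted p = 0.0613, and 0.000408 to 0.233) also did not pass.

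**Figure D2:**
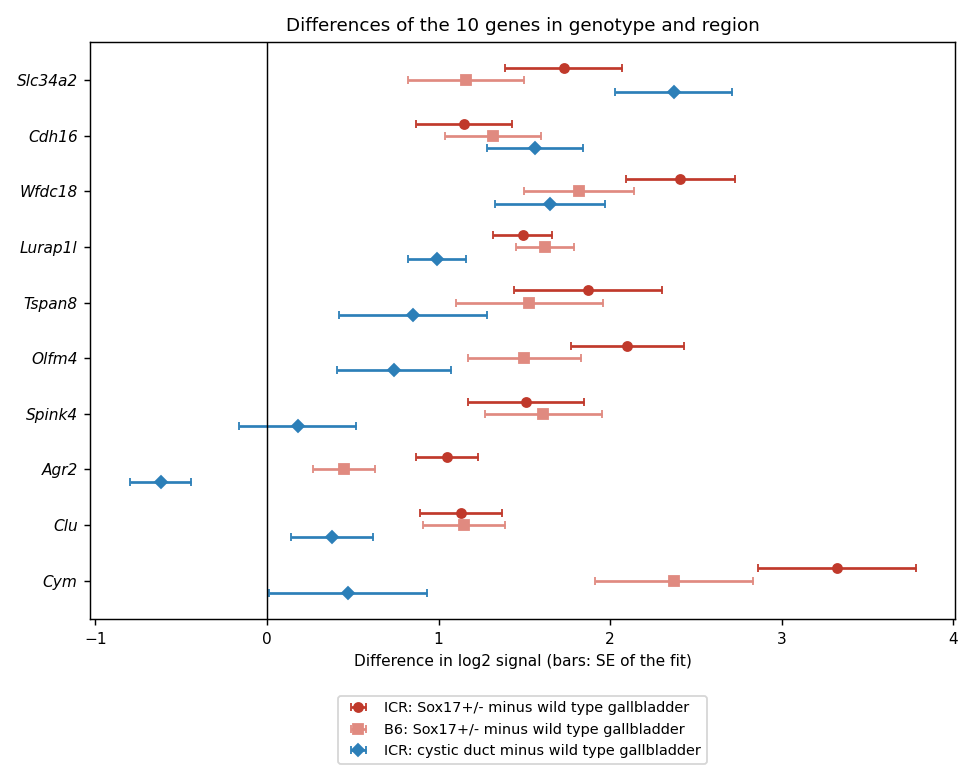
Difference in log2 signal (horizontal axis) of the 10 genes for Sox17+/- minus wild type gallbladder in ICR (circles) and in B6 (squares) and for cystic duct minus wild type gallbladder in ICR (diamonds), with bars of 1 SE. The genotype values chose the genes, and the ICR genotype and cystic duct values share the wild type samples. Slc34a2 reaches 2.37 in cystic duct, while Agr2 lies at -0.62 there.

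Promoters of 7 of the 10 genes are in the RefSeq table of windows from 250 bases before to 50 after a gene's start. Those of Slc34a2 and Wfdc18, which were higher in cystic duct, and of Cym and Olfm4, which did not pass there, are shown 5′ to 3′ so that both kinds can be set side by side. Capitals mark matches on either strand to TATAAA, the SOX core AACAAT, the forkhead core TGTTTAC, the HNF1 motif GTTAAT and the CEBP core TTGCGCAA.
Slc34a2 promoter, GRCm38.p6, chr5:53049103-53049402, plus strand: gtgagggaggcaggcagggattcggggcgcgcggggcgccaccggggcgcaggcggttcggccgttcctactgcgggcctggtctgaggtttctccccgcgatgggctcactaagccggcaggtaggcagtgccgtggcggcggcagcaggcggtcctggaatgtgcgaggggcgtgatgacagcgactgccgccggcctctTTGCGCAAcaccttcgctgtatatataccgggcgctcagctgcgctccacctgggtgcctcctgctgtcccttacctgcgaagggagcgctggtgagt
Wfdc18 promoter, GRCm38.p6, chr11:83708754-83709053, plus strand: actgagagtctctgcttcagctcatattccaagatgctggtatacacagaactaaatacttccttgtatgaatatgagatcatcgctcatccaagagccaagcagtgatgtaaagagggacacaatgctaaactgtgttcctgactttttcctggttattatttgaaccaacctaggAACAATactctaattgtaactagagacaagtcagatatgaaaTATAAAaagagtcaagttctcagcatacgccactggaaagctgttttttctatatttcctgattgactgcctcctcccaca
Cym promoter, GRCm38.p6, chr3:107221683-107221982, minus strand: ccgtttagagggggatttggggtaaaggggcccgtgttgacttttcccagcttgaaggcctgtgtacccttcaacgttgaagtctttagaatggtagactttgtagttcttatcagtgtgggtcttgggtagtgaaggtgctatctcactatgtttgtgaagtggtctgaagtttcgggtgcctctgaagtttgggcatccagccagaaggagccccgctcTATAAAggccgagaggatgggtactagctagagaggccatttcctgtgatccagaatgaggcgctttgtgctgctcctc
Olfm4 promoter, GRCm38.p6, chr14:80000052-80000351, plus strand: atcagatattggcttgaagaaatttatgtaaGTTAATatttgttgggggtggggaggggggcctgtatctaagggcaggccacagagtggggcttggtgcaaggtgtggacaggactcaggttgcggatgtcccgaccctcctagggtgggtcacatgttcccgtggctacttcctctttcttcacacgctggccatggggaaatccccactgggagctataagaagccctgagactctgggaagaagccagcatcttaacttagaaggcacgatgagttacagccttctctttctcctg

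Few of the exact letter matches were shared between windows, and likeness beyond these letters was not measured. Stretches close to TATAAA, such as tatata in Slc34a2 and tataag in Olfm4, were not counted. Counted from the start, the Wfdc18 window held TATAAA at -31 and AACAAT at -73, and the Cym window TATAAA at -29. The Slc34a2 window held TTGCGCAA at -48 and was the richest of the 7 in G and C (68.7%, with 30 CG pairs, against a median of 52.7% and 7 in all windows). Over all 32851 windows of this length TATAAA was present in 13.6%, AACAAT in 10.7%, TGTTTAC in 3.65%, GTTAAT in 7.1% and TTGCGCAA in 0.183%. Of the 7 windows, 2 held TATAAA, and AACAAT (Wfdc18), TGTTTAC (Tspan8), GTTAAT (Olfm4) and TTGCGCAA (Slc34a2) were in 1 each. The E-box CANNTG was in 4 of the 7 and in 72.3% of all windows. A match describes the letters and does not show that a factor binds.

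Tspan8, a tetraspanin of epithelial membranes, was high in 1 cystic duct sample only. It read 10.14 in replicate 1 and 8.59 in replicate 2, against 8.61 and 8.43 in ICR wild type gallbladder. ICR Sox17+/- gallbladder read 10.16 and 10.62, so the first cystic duct sample was near the Sox17+/- level and the second at the wild type level. The difference was 0.85 (SE 0.43, 95% interval -0.16 to 1.85, limma adjusted p = 0.222). It was 1.62 without cystic duct replicate 2 and 0.07 without replicate 1. In B6, Tspan8 read 10.62 and 10.51 in Sox17+/- and 9.23 and 8.86 in wild type gallbladder.

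The Tspan8 probe sets did not give 1 answer for cystic duct. Over the 5 of them the genotype difference was above 0 throughout, with 0.57 to 1.87 in ICR and 0.69 to 1.53 in B6. The cystic duct difference ran from -0.18 to 1.66. The highest, on 1455709_at, came from 7.44 and 6.66 in cystic duct against 5.30 and 5.48 in ICR wild type gallbladder, with no overlap (limma adjusted p = 0.052, adjusted over 26443 probe sets). On 1420017_at cystic duct read 7.08 and 5.51 and wild type gallbladder 6.59 and 6.37.

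Olfm4 and Spink4, secreted proteins of gut epithelium, did not pass for cystic duct. Olfm4, a glycoprotein of intestinal crypts, read 9.25 and 9.57 in cystic duct, against 9.00 and 8.34 in ICR wild type gallbladder. B6 wild type gallbladder, at 9.85 and 9.41, lay at the cystic duct level. Sox17+/- gallbladder read 10.35 and 11.20 in ICR and 11.29 and 10.96 in B6, above every other sample. The cystic duct difference of Olfm4 was 0.74 (SE 0.33, 95% interval -0.03 to 1.50, limma adjusted p = 0.17), and -0.22 against B6 wild type gallbladder (95% interval -0.98 to 0.54).

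Spink4, a Kazal-type protease inhibitor of goblet cells, read 7.25 and 7.13 in cystic duct, against 6.91 and 7.12 in ICR wild type gallbladder. The difference was 0.18 (SE 0.34, 95% interval -0.60 to 0.96, limma adjusted p = 0.739). In Sox17+/- gallbladder it read 8.08 and 8.98 in ICR and 9.18 and 8.60 in B6, with B6 wild type gallbladder at 7.54 and 7.03. All Sox17+/- samples were therefore above both cystic duct samples.

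Cym read 7.23 and 7.41 in cystic duct, between the 2 ICR wild type gallbladder samples. The difference was 0.47 (SE 0.46, 95% interval -0.58 to 1.52, limma adjusted p = 0.5). It turned to -0.29 without ICR wild type gallbladder replicate 1 and was 1.23 without replicate 2 (limma adjusted p = 0.0695, and 0.0695 to 0.881 over all alternatives). Against B6 wild type gallbladder it was 0.75 (95% interval -0.30 to 1.80).

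Agr2, a disulfide isomerase that helps fold mucins, was the only one of the 10 genes below ICR wild type gallbladder in cystic duct, while against B6 wild type gallbladder Olfm4 (-0.22) and Spink4 (-0.09) were also below 0. It read 4.24 and 4.09 in cystic duct, against 4.78 and 4.80 in ICR wild type gallbladder, and 5.84 and 5.83 in ICR Sox17+/- gallbladder. In B6 it read 5.30 and 5.18 in Sox17+/- and 4.94 and 4.64 in wild type gallbladder. These are dim signals, and both cystic duct values lie below 4.47, the mean level under which genes were not tested. Agr2, with a mean of 4.96 over all samples, ranked at the 25.9th percentile of gene means. Its second probe set, below that level, changed by at most 0.16 in any of these comparisons. The cystic duct difference was -0.62 (SE 0.18, 95% interval -1.04 to -0.20) and did not pass over all genes (limma adjusted p = 0.0575). Against wild type gallbladder of both strains together Agr2 passed as lower (limma adjusted p = 0.0292, where 12.7% of all genes passed as lower), and over 20 alternatives the adjusted p ran from 0.0116 to 0.599.

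Clu encodes clusterin, a secreted chaperone, and is read by 4 probe sets, 3 of them of a type prone to cross-hybridization. On the remaining one it read 11.70 and 11.92 in cystic duct, against 11.61 and 11.25 in ICR wild type gallbladder. Sox17+/- gallbladder read 12.27 and 12.85 in ICR and 12.38 and 12.12 in B6, with B6 wild type gallbladder at 11.33 and 10.86. Cystic duct lay between the genotypes, with a difference of 0.38 (SE 0.24, 95% interval -0.18 to 0.94, limma adjusted p = 0.315). The 4 probe sets ranged from 0.17 to 0.44 for cystic duct, 0.70 to 1.13 for genotype in ICR, and 0.85 to 1.15 for genotype in B6.

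**Figure D3:**
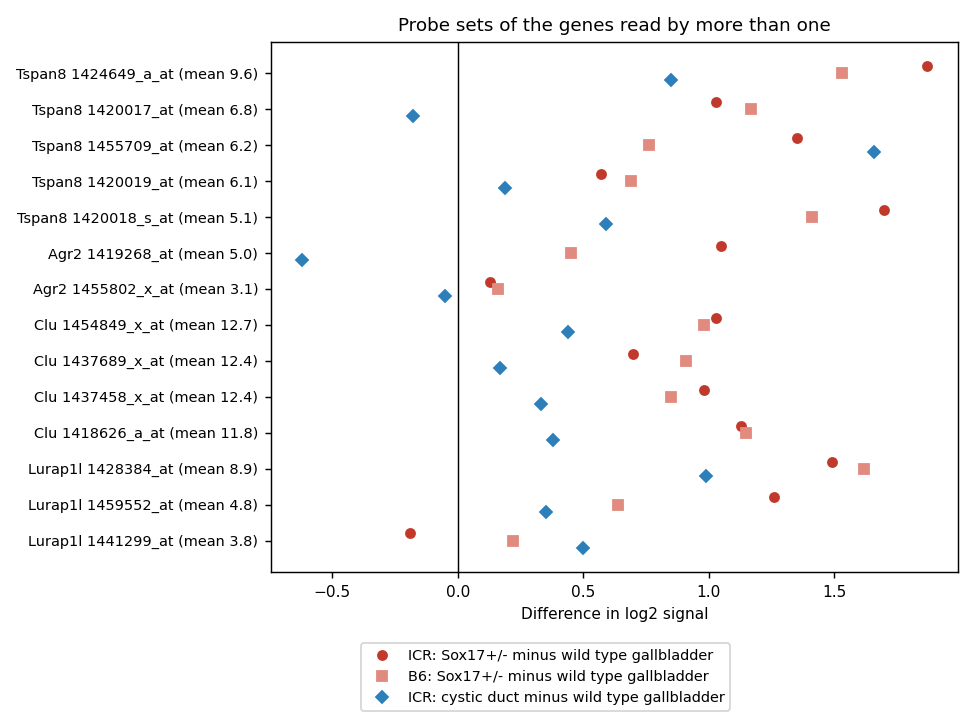
Difference in log2 signal (horizontal axis) on each probe set of the 4 genes with more than 1, for Sox17+/- minus wild type gallbladder in ICR (circles) and B6 (squares) and for cystic duct minus wild type gallbladder in ICR (diamonds). The mean log2 signal of the probe set stands beside its name. The cystic duct points of Tspan8 run from -0.18 to 1.66, and those of Clu from 0.17 to 0.44.

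Of the 20 probe sets, 18 lay above the level for testing, and 4 of these passed as higher in cystic duct when every probe set was tested (3.71% of all), those that read Slc34a2, Cdh16, Wfdc18 and Lurap1l. Of the 3 probe sets of Lurap1l, the bright one reads the gene here. The second (1459552_at) read 4.92 and 4.00 in cystic duct and 3.97 and 4.26 in ICR wild type gallbladder. The third, 1441299_at, was below that level, and its cystic duct values were 3.31 and 5.43. With the mean of its probe sets Lurap1l differed by 0.61 in cystic duct and did not pass (limma adjusted p = 0.0769).

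Both cystic duct samples lay above both ICR wild type gallbladder samples for 7 of the 10 genes, against 21.7% of all genes tested, and below them for 1, Agr2, against 27.6%. Spink4, among the 7, rests on 7.13 in cystic duct against 7.12 in ICR wild type gallbladder. Both cystic duct samples lay above all 4 wild type gallbladder samples for 5, against 15.2%. The wild type gallbladder samples were among those on which the genes were chosen as low. Any excess over the shares of all genes is thus partly built in. The 5 genes above all 4 were Slc34a2, Cdh16, Wfdc18, Lurap1l and Clu. For Clu this did not hold on 1437689_x_at and 1437458_x_at. There cystic duct replicate 1, at 11.87 and 11.74, lay below both ICR wild type gallbladder samples. On 1454849_x_at it held. Agr2 was the 1 gene below all 4 wild type gallbladder samples, as were 22.5% of all genes. Set beside ICR Sox17+/- gallbladder, which was chosen as high, both cystic duct samples were lower for 8 genes, overlapped for Slc34a2, and were higher for Cdh16, by as little as 0.01 in the nearest pair. For Tspan8, among the 8, the nearest pair was 10.14 in cystic duct and 10.16 in Sox17+/- gallbladder, and on its probe set 1455709_at these groups overlapped. Among all genes tested, cystic duct was below ICR Sox17+/- gallbladder without overlap for 25% and above it for 19.9%. The ICR mean of Sox17+/- gallbladder minus that of cystic duct ran from -0.64 for Slc34a2 to 2.85 for Cym.

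The strains were compared in 2 ways, both on samples that chose the genes. Since a rise in both strains was required, the choice itself limits how far the strains can differ, and nothing is read from the lack of calls. The genotype difference in B6 minus that in ICR ran from -0.95 for Cym (95% interval -2.44 to 0.53) to 0.16 for Cdh16 (95% interval -0.75 to 1.08). The value of Cym was -1.71 without ICR wild type gallbladder replicate 2 and -0.19 without replicate 1. Agr2 lay at the edge of its interval (-0.59, 95% interval -1.19 to 0.00, limma unadjusted p = 0.05 after rounding). Of the 10 genes 0 passed and 0 had an unadjusted p below 0.05 in limma, against 0 (0%) and 151 (1.03%) of all genes tested. In wild type gallbladder, B6 minus ICR ran from -0.33 for Clu to 0.96 for Olfm4. Of the 10 genes 0 passed and 1 had an unadjusted p under 0.05, where 0.143% and 11.1% of all genes did. That gene was Olfm4, whose B6 samples (9.85 and 9.41) were above the ICR samples (9.00 and 8.34), with a 95% interval of 0.19 to 1.72 and a limma adjusted p of 0.333.

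RNA of other cell types differed between the regions. Of 17 hepatocyte genes, 16 were called higher and 0 lower in cystic duct by limma, against 14.3% of all genes called in either direction, with a median difference of 3.47, and the antitrypsin gene Serpina1b differed by 3.43 (SE 0.30). Summed on the linear scale, their signal was 194000 and 142000 in cystic duct, against 38800 and 29900 in ICR wild type gallbladder. Of 9 erythroid genes, 6 were called higher, and of 12 smooth muscle genes 9 were called lower, with the smooth muscle myosin Myh11 at -2.67 (SE 0.24). The summed signal of smooth muscle genes was 9940 and 15200 in cystic duct, against 37900 and 38500 in ICR wild type gallbladder, and the part of these differences in the values of the 10 genes was not tested. The hepatocyte and erythroid sums were higher in cystic duct replicate 1 than in replicate 2. Of the 10 genes, Tspan8, Lurap1l, Spink4 and Agr2 read higher in replicate 1, and Slc34a2, Cdh16, Wfdc18, Olfm4, Clu and Cym in replicate 2.

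Hepatocyte signal also differed with genotype in ICR, at 71800 and 57100 in Sox17+/- gallbladder against 38800 and 29900 in wild type gallbladder. In B6 it overlapped, at 61700 and 64100 in Sox17+/- and 68400 and 49800 in wild type gallbladder.

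**Figure D4:**
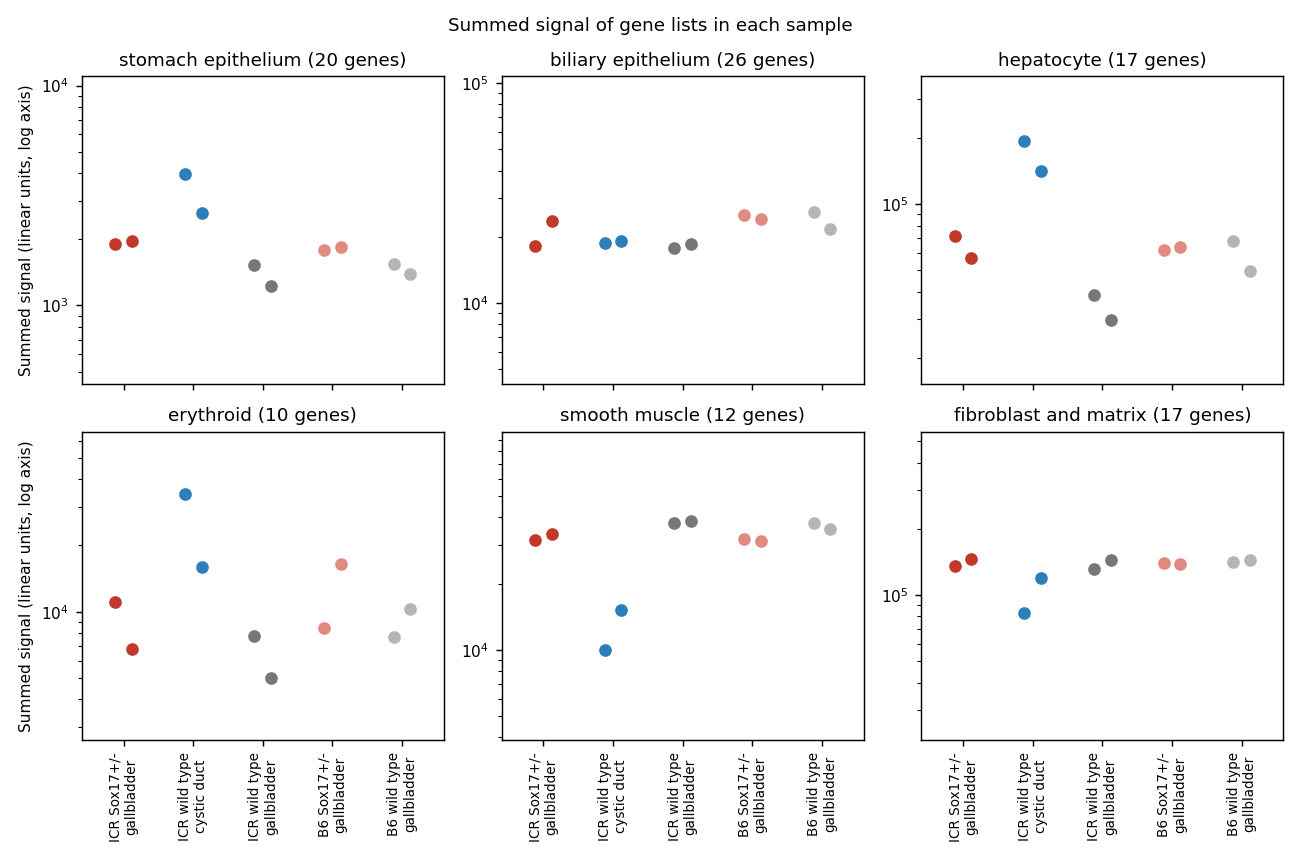
Summed signal in linear units (vertical axis, logarithmic, each panel spanning the same ratio) of 6 marker lists in each sample (points), by group. Hepatocyte genes reach 194000 and 142000 in cystic duct, and the biliary epithelium genes stay between 17700 and 25900 in all samples.

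The 26 measured genes of the biliary epithelium list, whose sum is weighted to the brightest of them, summed to 18700 and 19100 in cystic duct, against 17700 and 18600 in ICR wild type gallbladder. The ICR Sox17+/- samples were at 18200 and 23600, those of B6 at 25000 and 24200, and B6 wild type gallbladder at 25900 and 21700. Of 25 tested, 3 were called higher and 4 lower in cystic duct, against 5.73% and 8.61% of all genes, with a median of 0.09. The cadherin Cdh6 was higher (1.28, SE 0.22, limma adjusted p = 0.00915), with genotype differences of 0.86 in ICR and 1.09 in B6, and the keratin Krt19 lower (-1.15, SE 0.20, limma adjusted p = 0.00994). Sox9, a transcription factor of the biliary epithelium named after its values were seen, had genotype differences of 1.06 in ICR and 1.42 in B6 and a cystic duct difference of -0.06 (SE 0.41).

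Goblet and mucus genes were called in both directions in cystic duct. Of 18 goblet and mucus genes tested, Tff3, a trefoil peptide of goblet cells, was higher (9.09 in cystic duct, 6.28 in ICR wild type gallbladder as group means, limma adjusted p = 0.00365), and Klf4, Muc1 and Creb3l1 were lower, 4 of 18 where 14.3% of all genes were called in either direction. The median was -0.10. Of 15 stomach epithelium genes, only Ctse, an aspartic protease of the family of Cym, was called higher (5.73% of all genes) and 0 lower (8.61%), at 11.00 in cystic duct and 8.51 in ICR wild type gallbladder (limma adjusted p = 0.00752). Its genotype difference was 1.39 in ICR and 0.87 in B6. The choice of lists and of these genes followed earlier results of the same data.

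Of 34 paralogues tested, 5 were called higher and 5 lower in cystic duct, against 14.3% of all genes called in either direction. Spink1, a trypsin inhibitor of the family of Spink4, stood at 10.20 in cystic duct and 6.15 in ICR wild type gallbladder as group means (4.05, SE 0.53, limma adjusted p = 0.00414). Its genotype difference was 1.47 in ICR and -0.01 in B6. Spink1 was thus 16.6-fold higher in cystic duct than in ICR wild type gallbladder, where Spink4 differed by 1.13-fold. In B6 wild type gallbladder the mean of Spink1 was 7.62, above that of ICR and below that of cystic duct. Tspan2 was lower (-1.50, SE 0.22) and Olfml2b was lower (-1.29, SE 0.24), each with a limma adjusted p below that of Wfdc18. The phosphate transporter Slc20a2, named after its values were seen, was higher by 0.87 (SE 0.17).

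The genes whose pattern over the 10 samples was most like the mean of the standardized 10 genes were Scara3 (r = 0.974), Pdgfc (0.964), Lypd6b (0.926), Hhex (0.92), Fabp7 (0.906), Slc7a13 (0.898), Adamts16 (0.895) and Cldn8 (0.886). These r values, over n = 10 samples that fall into genotype groups, describe likeness to genes chosen by genotype, and carry no test. The cystic duct samples were among the 10, so the cystic duct values below helped to choose these genes. Hhex, a transcription factor of foregut endoderm, read 10.04 and 10.28 in cystic duct, against 9.58 and 9.56 in ICR wild type gallbladder. It read 10.09 and 10.39 in ICR Sox17+/- gallbladder, so cystic duct and Sox17+/- gallbladder overlapped. Cldn8, a tight junction protein, read 8.58 and 8.52 in cystic duct and 7.08 and 6.62 in ICR wild type gallbladder, and ICR Sox17+/- gallbladder was at 8.53 and 8.77.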

How the data were processed

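RNA of 10 samples was extracted with Trizol and labelled with biotin for Affymetrix arrays, per the labels' protocols. The deposited table holds log2 signals for each probe set, as their range of 2.2 to 15.15 shows. Which background, summary and normalization methods were used is not given in the sources used here. Titles and strain labels gave the groups; the tags of stage and genotype are swapped in the records. No batch is given.

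Of 45101 probe sets, 64 controls were left out and 34945 name 1 gene in the platform table; 34741 of these had an Entrez identifier in the RefSeq table (GRCm38.p6). Sample medians of 5.51 to 6.07 led to quantile normalization. Each gene was read by its brightest probe set, types in _x_at only where no other was present, and genes under the 30th percentile of mean signal (4.47) were left out.

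Limma 3.58.1 (R 4.3.3) fitted 1 mean per group with a variance trend (5 residual degrees of freedom), and p-values were adjusted by Benjamini-Hochberg over 14696 genes, with a threshold of 0.05. The fit was tested on simulated data with the same spread in every group, which cannot check the wider spread of the cystic duct pair. The 10 genes, the 18 gene lists and the tests were chosen with earlier results of these data known. Up to 4 genes per list were named by p for cystic duct, and 8 by likeness. Replicate numbers were not treated as pairs, and precision is limited by 2 arrays a group. Alternatives were other scalings, filters, probe set rules, variance models, references and leaving out samples. Promoters came from RefSeq (GRCm38.p6); 3 of the 10 genes had no match.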

Additional observations from a re-analysis of the deposited data

How the results depend on the processing

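Differences between same-numbered replicates correlated at 0.09 (Sox17+/- gallbladder with cystic duct), 0.38 (Sox17+/- with wild type gallbladder) and 0.07 (cystic duct with wild type gallbladder) in ICR and at 0.22 (Sox17+/- with wild type gallbladder) in B6, so the numbers were not taken as pairs. With the replicate number as a block, 4 of the 10 genes and 1720 of all genes passed for cystic duct, 13 passed for strain and 0 for the strain difference of the genotype effect. The count for cystic duct was 2107 genes and 4 of the 10; it was 0 and 0 with array weights and with only the groups compared, and 821 to 7539 genes and 2 to 6 of the 10 when 1 sample was left out. It was 7539 and 4474 without cystic duct replicates 1 and 2, and 821 to 1235 without any 1 ICR wild type gallbladder or B6 sample. For B6 minus ICR wild type gallbladder the count of 21 became 54 in the values as deposited, 33 with the mean of probe sets, 664 with every probe set on its own, 1195 with array weights, 296 with only the groups compared, and 0 to 615 without 1 sample (615 and 614 without cystic duct replicates 1 and 2, 477 without ICR wild type gallbladder replicate 2, 57 without either B6 Sox17+/- sample, 0 to 5 without any of the 5 others). For the strain difference of the genotype effect leaving out ICR wild type gallbladder replicate 2 gave 268 and leaving out any other sample 0 to 1. Calls for cystic duct were 40% higher ones, 15.2% in the values as deposited and 26.5% with centring on medians. Slc34a2 passed in 20 of 22 alternatives, Wfdc18 and Cdh16 in 19, and Lurap1l in 17. These counts include the fits with 1 cystic duct sample left, which are no check of the calls. Those fits also gave the lowest adjusted p in the ranges of these 4 genes and of Agr2.

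Signs that turned were those of values that never passed. For cystic duct they were Olfm4 (-0.22) and Spink4 (-0.09) with B6 as the reference, Spink4 in the values as deposited (-0.08), and Cym (-0.29 to 1.23 without 1 sample). For the strain difference of the genotype effect, centring on medians gave -0.01 for Spink4, -0.10 for Clu and -0.01 for Lurap1l, the mean of probe sets -0.03 for Lurap1l, and leaving out 1 sample -0.36 to 0.54 for Spink4, -0.27 to 0.32 for Clu and -0.01 to 0.34 for Cdh16. For B6 minus ICR, the values as deposited gave -0.33 for Agr2, centring -0.02 for Agr2, 0.07 for Slc34a2 and 0.15 for Lurap1l, the mean of probe sets 0.07 for Lurap1l, and leaving out 1 sample -0.15 to 0.15 for Agr2, -0.05 to 0.04 for Slc34a2, -1.04 to 0.48 for Cym and -0.10 to 0.02 for Lurap1l. The cause of these shifts was not tested. Where a group was left with 1 sample, that sample was taken to vary as much as those of the other groups. With 1 cystic duct sample left, the gallbladder samples alone set the spread, so passing in those fits is no check of the calls.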
